A study of Lolium arundinaceum with 6 samples.

Results

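The genes described here are 5 unigenes of tall fescue matched to genes of auxin response and cell expansion. They are IAA26 (c144562_g1, a repressor of the Aux/IAA family), ARF1 (c153976_g1, an auxin response factor), a SAUR (c139599_g2, a small auxin up RNA), ABP1 (c139704_g1, an auxin binding protein) and EXPA10 (c150220_g2, an expansin). They were chosen by name out of 179680 unigenes, with earlier results of these data known. All 5 stand in the study's lists of unigenes changed by heat in these same libraries. The names are those of the best match in Arabidopsis, so the function of each product in tall fescue is inferred from that match. RNA from leaves of the variety Fire Phoenix II (Lolium arundinaceum, genotype given as WT) had been sequenced to follow the response to short term and long term heat. Seedlings were 10 days old and grew at 23 °C. They were sampled there (control, labelled 0 h) or after 2 h or 12 h at 38 °C. Each of the 3 groups holds 2 biological replicates, so 6 libraries were used, with 6349776 to 7891567 counts each.

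Auxin acts by removing a repressor. The hormone joins F-box receptors of the TIR1/AFB type to Aux/IAA proteins, which are then degraded, and this frees the auxin response factors (ARFs) that the Aux/IAA proteins hold back on auxin-responsive promoters. In Arabidopsis, ARF1 is itself known mainly as a repressor of transcription. SAUR genes are among the first to respond to auxin, and many SAUR proteins promote cell expansion by activating the proton pumps of the plasma membrane. Acid in the cell wall activates expansins, which loosen the bonds between cellulose and other wall polymers and let the cell grow. ABP1 is a protein largely held in the endoplasmic reticulum that binds auxin.

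The deposited values were expected counts per unigene. They were rounded, scaled between libraries by TMM (trimmed mean of M values) and are given as counts per 1000000 counts of the scaled library (CPM). The length of the unigenes was not used here, so levels were compared between libraries and not between unigenes. Tests were made with the quasi-likelihood method of edgeR on the 28005 unigenes with enough counts, and p-values were adjusted over all of them by the Benjamini-Hochberg method. Calls needed both a difference of 2-fold or more and an adjusted p no higher than 0.05. All 5 unigenes passed the filter on low counts. The SAUR (0 counts in both 12 h libraries) and EXPA10 (4 and 13) passed it only through the control and 2 h libraries. A unigene that passes in this way could hardly be called higher at 12 h. In bulk leaf RNA, fewer cells of a type and less RNA per cell cannot be told apart. Because the control was taken at 0 h, the length of the heat and the time of day cannot be told apart either. Both comparisons with the control use the same 2 control libraries.

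After 2 h of heat, 2 of the 5 unigenes were changed, with ABP1 higher and the SAUR lower. By 12 h all 5 were changed, with ABP1 and ARF1 higher and IAA26, the SAUR and EXPA10 lower, and all 5 differed in the same directions between 12 h and 2 h. Among all unigenes tested, 24.1% were called at 2 h (15.1% higher and 8.98% lower), 48.6% at 12 h (25.3% higher and 23.3% lower) and 35.8% between 12 h and 2 h (16.2% higher and 19.6% lower). A call on a single unigene was therefore common at 12 h. The study had already listed all 5 as changed in these same libraries, so their calls against the control are not independent evidence of a change.

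**Figure D1:**
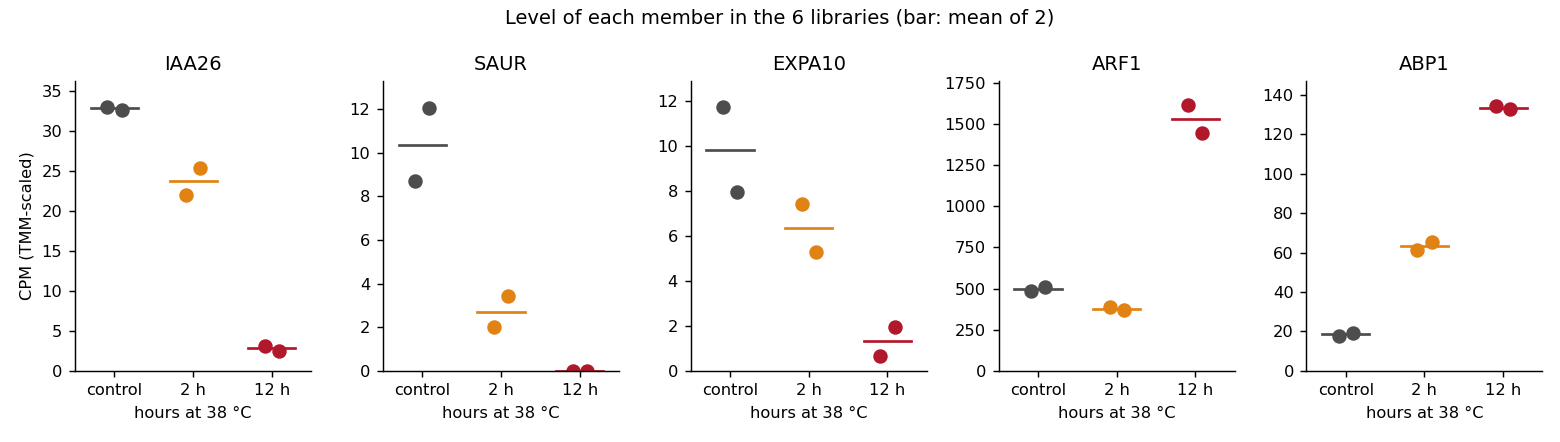
Level of each of the 5 unigenes in CPM (y axis, linear from 0, a separate scale per panel) in control leaves and after 2 h and 12 h at 38 °C. Points are the 6 libraries and bars the mean of 2 replicates. IAA26, the SAUR and EXPA10 are lowest at 12 h, where the SAUR has 0 counts, and ARF1 and ABP1 are highest there.

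IAA26 kept most of its level through 2 h and lost most of it by 12 h. It stood at 33.04 and 32.69 CPM in the control libraries, 22.06 and 25.44 CPM at 2 h and 3.158 and 2.536 CPM at 12 h. Both 12 h libraries lay far below the other 4. The mean at 12 h was 2.847 ± 0.440 CPM (SD, n = 2), which is 8.66% of the control mean of 32.87 ± 0.245 CPM. The fall was 11.53-fold (-3.53 ± 0.24 on the log2 scale, estimate ± standard error, adjusted p = 2.31e-07 by edgeR). At 2 h the log2 fold change was -0.47 (standard error 0.19) with an adjusted p of 0.0739 by edgeR, and IAA26 was not called. The direct comparison of 12 h with 2 h gave a log2 difference of -3.06 ± 0.24 (adjusted p = 3.4e-06 by edgeR).

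A further 2 unigenes had the same best match, Arabidopsis locus AT3G16500, and both were also lower at 12 h. One of them, c152021_g1, had 209 and 238 counts in the controls, 281 and 298 at 2 h and 53 and 60 at 12 h. It was not called at 2 h (log2 fold change 0.18, standard error 0.18, adjusted p = 0.464 by edgeR) and dropped by 1.84 in log2 units after 12 h (adjusted p = 1.13e-05 by edgeR). The other, c149452_g1, had only 44 counts in both controls together, 24 at 2 h and 1 at 12 h, so its level at 12 h was 39.6-fold lower with a 95% counting interval of 6.75 to 1600. Its call between 12 h and 2 h was lost without heat 12 h replicate 1 (adjusted p = 0.0646 by edgeR). Reads of such close relatives may have been shared between unigenes by the counting.

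ARF1 went the other way from IAA26, and late. Its level was 484.9 and 512.6 CPM in the control libraries, 385.6 and 369.5 CPM at 2 h and 1616 and 1448 CPM at 12 h. The 2 h libraries lay just below the controls and the 12 h libraries far above both. At 2 h the log2 difference of -0.40 ± 0.13 (standard error, adjusted p = 0.0337 by edgeR) did not reach a fold of 2, and ARF1 was not called. At 12 h ARF1 was 3.07-fold above the control (log2 fold change 1.62, standard error 0.13, adjusted p = 1.05e-06 by edgeR). From 2 h to 12 h it rose 4.06-fold (log2 difference 2.02, standard error 0.14, adjusted p = 1.11e-06 by edgeR).

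The second unigene matched to ARF1 (locus AT1G59750) did not rise. This unigene, c143271_g2, had 62 and 61 counts in the controls, 32 and 54 at 2 h and 20 and 27 at 12 h. It was lower at 12 h (-1.25 ± 0.36 on the log2 scale, adjusted p = 0.0102 by edgeR), where c153976_g1 was higher. The call on c143271_g2 was lost without control replicate 1 (adjusted p = 0.0658 by edgeR) or without heat 12 h replicate 1 (adjusted p = 0.0739 by edgeR).

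The SAUR fell early and was not detected at 12 h. It had 55 and 94 counts in the controls, 17 and 26 at 2 h, and 0 in both 12 h libraries. In CPM these were 8.695 and 12.05 in the controls and 1.995 and 3.427 at 2 h. The 2 h mean was 26.1% of the control mean. The log2 fold change at 2 h was -1.95 (standard error 0.37, adjusted p = 0.00211 by edgeR). With a floor of 3 counts over the 12 h group, the level at 12 h was at least 44.7-fold lower than in the control and at least 11.3-fold lower than at 2 h. These bounds take the control and 2 h counts as observed, without their spread. The adjusted p was 6.55e-06 against the control and 0.000456 against 2 h by edgeR. The fitted fold change against 0 counts depends on the prior count and is not given.

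The SAUR shares its best match, locus AT1G29500, with 3 more unigenes, one of which (c139599_g1) comes from the same assembly component. All 4 were lower at both time points, and their summed level was 30.35 and 28.08 CPM without heat, 9.271 and 11.07 CPM after 2 h and 0.499 and 0.597 CPM after 12 h. In counts, c139599_g1 went from 61 and 54 in the controls through 38 and 24 at 2 h to 1 and 4 at 12 h. Its neighbour in sequence match, c140286_g1, went from 55 and 48 through 18 and 27 to 0 in both 12 h libraries, which is at least 30.9-fold lower than in the control. The fourth, c142505_g1, had 44 counts in both controls together, 13 at 2 h and 2 at 12 h. None of the 4 was higher than the control at any time. All 4 passed the filter on low counts only through control or 2 h libraries, so they could hardly be called higher at 12 h. For c142505_g1, which passed through the controls, this limit holds at 2 h too. The calls of the relatives at 2 h depended on the tool and the libraries. DESeq2 called 1 of the 4 at 2 h, and without control replicate 1 the adjusted p by edgeR was 0.223 for c139599_g1, 0.142 for c140286_g1 and 0.132 for c142505_g1. The adjusted p of c142505_g1 was 0.104 without control replicate 2, and c139599_g1 fell under the fold limit without heat 2 h replicate 2 (log2 fold change -0.90).

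ABP1 rose at both time points. Its level was 17.86 and 19.23 CPM without heat, 61.49 and 65.37 CPM after 2 h and 134.3 and 132.9 CPM after 12 h. The groups were far apart compared with the spread between replicates, and each step was upward. At 2 h ABP1 was 3.41-fold above the control (log2 fold change 1.77, standard error 0.16, adjusted p = 6.81e-06 by edgeR), and at 12 h it was 7.19-fold above (log2 fold change 2.85, standard error 0.17, adjusted p = 6.27e-08 by edgeR). The step from 2 h to 12 h was 2.11-fold (log2 difference 1.08, standard error 0.15, adjusted p = 0.000185 by edgeR). That step lies close to the fold limit and fell below it when libraries were scaled by their totals alone (log2 difference 0.81, adjusted p = 0.00132 by edgeR).

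EXPA10 was lower at 12 h and was not called at 2 h. It had 74 and 62 counts in the controls, 63 and 40 at 2 h and 4 and 13 at 12 h. In CPM the 2 h values of 7.393 and 5.272 lay just below the control values of 11.70 and 7.949, and the 12 h values of 0.665 and 1.939 lay below all others. At 2 h the log2 fold change was -0.62 with a 95% interval of -1.37 to 0.14 (adjusted p = 0.195 by edgeR). At 12 h it was 7.27-fold lower (log2 fold change -2.86, standard error 0.45, adjusted p = 0.000175 by edgeR), and 4.73-fold lower than at 2 h (log2 difference -2.24, standard error 0.46, adjusted p = 0.00196 by edgeR). The size at 12 h rests on which 12 h library is used, as the log2 fold change was -3.80 without heat 12 h replicate 2 and -2.30 without heat 12 h replicate 1, and the difference from 2 h was -3.17 and -1.67.

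**Figure D2:**
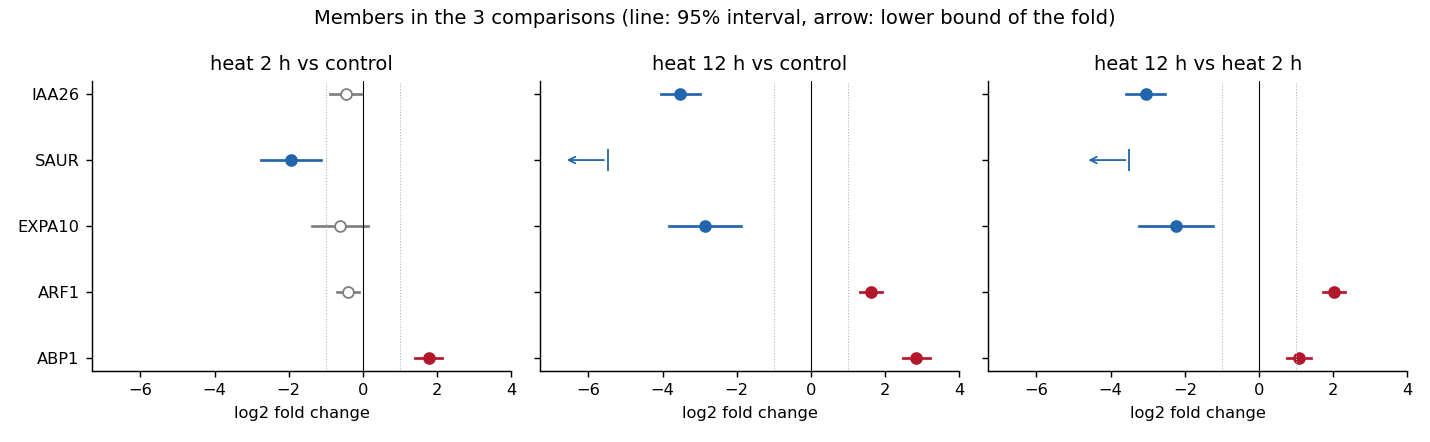
Log2 fold change (x axis) of the 5 unigenes in the 3 comparisons. Points are edgeR estimates with 95% intervals as lines, red for higher, blue for lower and open grey for not called, the dotted lines mark a fold of 2, and an arrow starts at the lower bound of the fold where the SAUR has 0 counts at 12 h. IAA26, EXPA10 and ARF1 are open at 2 h and filled at 12 h, while ABP1 is red and the SAUR blue in each panel.

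**Figure D3:**
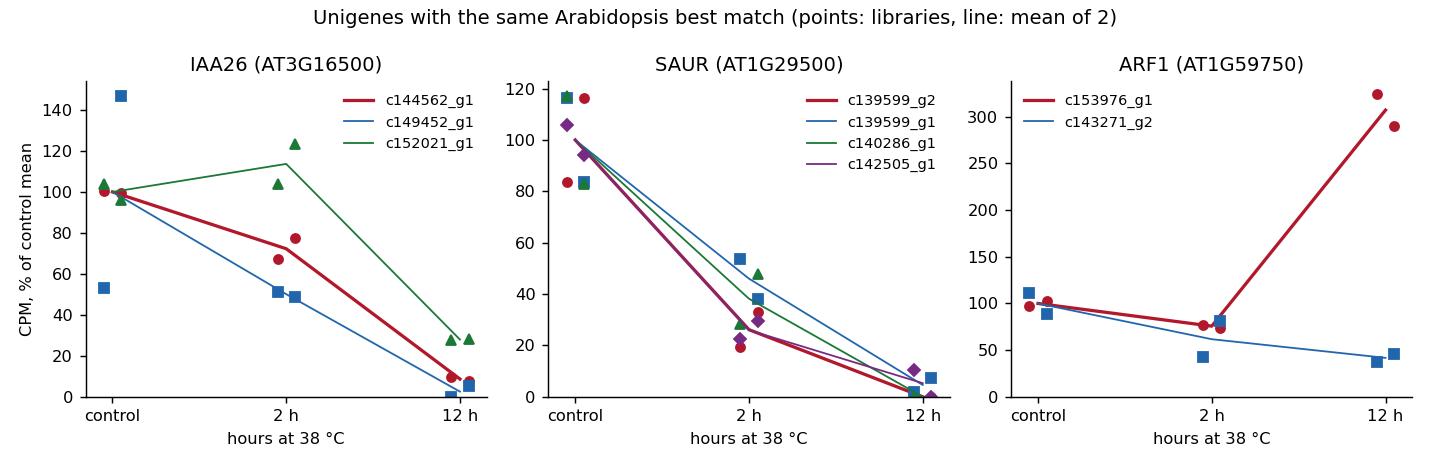
Level as a percent of the control mean (y axis) in control leaves and after 2 h and 12 h at 38 °C for the unigenes that share a best match with IAA26, the SAUR or ARF1. Points are libraries, lines join the means of 2 replicates, and the red line is the unigene described here. The IAA26 and SAUR relatives end low at 12 h with it, whereas c153976_g1 and c143271_g2 of ARF1 part, at 307.2% for the former.

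Around these genes stands a list of 72 auxin genes that the study drew from these same libraries because they had changed, so its counts are not independent evidence of a direction. IAA26, ARF1, the SAUR and ABP1 are among them, and 68 of the 72 had enough counts for a test. Many of these had fewer than 10 counts in both 12 h libraries, among them TIR1 (c154565_g2) and ARF3 (c146582_g3). They passed the filter through the control or 2 h libraries, so a call on them at 12 h could hardly be higher. This limit also holds for the counts by role given below. At 2 h, 7 were higher against 23 lower, and the median log2 fold change was -0.68, compared with 0.05 over all unigenes tested. At 12 h, 10 were higher and 54 lower, with a median of -2.15 against 0.00 over all. Between 12 h and 2 h, 6 were higher and 37 lower, with a median of -1.48 against -0.09. Of the 38 list members called at 12 h and not at 2 h, as IAA26 and ARF1 were, 30 also differed in the direct comparison of the time points, against 5986 of 8769 over all unigenes. The count of list members lower at 2 h dropped from 23 to 14 without control replicate 1, and the count higher at 12 h than at 2 h dropped from 6 to 3 without heat 12 h replicate 2. Setting the 2 unigenes with 0 counts at 12 h to their bounds left the medians as they were.

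Of the genes for making and moving auxin, CYP79B2 (c143723_g1), which converts tryptophan to indole-3-acetaldoxime in Arabidopsis, was lower at 12 h (log2 fold change -1.22, standard error 0.24, adjusted p = 0.00101 by edgeR). Of the 6 efflux carriers, 5 were lower and 1 higher at both time points. PIN5 (c138127_g1), which in Arabidopsis lies in the membrane of the endoplasmic reticulum, had 165 and 205 counts in the controls, 92 and 71 at 2 h and 21 and 22 at 12 h, a fall by 2.95 on the log2 scale (adjusted p = 1.17e-06 by edgeR). The carrier that was higher, c150485_g1, was singled out after its values were seen. It had 9 and 23 counts in the controls, 464 and 292 at 2 h and 86 and 76 at 12 h, so it was highest at 2 h and lower again at 12 h (log2 difference -1.86, adjusted p = 0.000151 by edgeR).

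Of the 3 receptors, 2 were lower at 12 h and 1 higher. TIR1 (c154565_g2) had 75 and 85 counts in the controls, 55 and 53 at 2 h and 3 in each 12 h library, a log2 difference of -4.54 ± 0.40 (standard error) from the control (adjusted p = 1.94e-06 by edgeR). AFB2 (c155641_g1), a receptor of the same family, had 207 and 279 counts in the controls, 329 and 308 at 2 h and 36 and 60 at 12 h, a fall by 2.19 (adjusted p = 5.76e-06 by edgeR). Neither was called at 2 h, and both were lower at 12 h than at 2 h in the direct test, by -3.78 and -2.40 on the log2 scale. A second unigene matched to TIR1, c136442_g1, named after its values were seen, went up from 6 counts in each control to 43 and 28 at 2 h and 85 and 61 at 12 h.

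Among the Aux/IAA repressors, the family of IAA26, none of 13 was higher at either time by edgeR, also at an unadjusted p and with DESeq2. At 2 h 6 were lower and at 12 h 11 were lower, with a median log2 fold change of -2.82 at 12 h. IAA26 had the smallest adjusted p of the family at 12 h. The 2 not called at 12 h were both matched to IAA14 (c148134_g1 and c148167_g1, named after their values were seen). Both had been lower at 2 h, at log2 fold changes of -1.07 and -1.27. The summed level of the family was 241.4 and 252.3 CPM without heat, 141.9 and 147.9 CPM after 2 h and 111 and 105 CPM after 12 h.

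Among 22 tested ARFs, 17 were lower at 12 h and 4 higher, of which ARF1 was one. At 2 h 2 were lower and 2 higher by edgeR, and 1 and 1 with DESeq2. The higher call on ARF2 (c137962_g3) at 2 h was lost without control replicate 1 (adjusted p = 0.181 by edgeR). The 23 listed ARFs other than c153976_g1 had a summed level of 262.7 and 262.4 CPM without heat, 193.7 and 220.2 CPM after 2 h and 114.8 and 121.9 CPM after 12 h. With c153976_g1 included the sum was 747.6 and 775.0 CPM without heat and 1731 and 1570 CPM after 12 h, so this unigene set the direction of the sum. ARF3 (c146582_g3), known in Arabidopsis for its part in organ polarity, had the next smallest adjusted p and had 79 and 84 counts in the controls, 78 and 69 at 2 h and 8 in each 12 h library (log2 fold change -3.19 at 12 h, adjusted p = 7.08e-06 by edgeR). The 3 ARFs that were higher beside ARF1 were named after their values were seen. They were ARF16 (c155264_g1, log2 fold change 1.29), ARF2 (c137962_g3, log2 fold change 1.79, or 1.28 and 2.74 without control replicate 1 and 2) and ARF17 (c133670_g1, 2 control counts and 37 at 12 h, 20.5-fold higher with a 95% counting interval of 5.3 to 176). The other unigenes matched to ARF2, also named after their values were seen, were not higher at 12 h. Called lower there were c151213_g2 (log2 fold change -1.50) and c150125_g1 (-1.12). The last, c148334_g1, was higher at 2 h and not called at 12 h (0.04).

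Of 17 tested SAURs, 6 were lower and 1 higher at 2 h, and 14 were lower and 2 higher at 12 h. The smallest adjusted p at 12 h belonged to c143594_g1, with 55 and 85 counts in the controls, 29 and 24 at 2 h and 1 in each 12 h library (63-fold lower at 12 h, 95% counting interval 17.1 to 526, adjusted p = 2.44e-06 by edgeR). With DESeq2, 2 SAURs were lower at 2 h and 14 at 12 h. The SAUR that was higher at 2 h, c141910_g1, had 213 and 279 counts in the controls, 889 and 500 at 2 h and 259 and 271 at 12 h, and it was not called at 12 h. Without heat 2 h replicate 1 its log2 fold change at 2 h was 0.93, under the fold limit. The SAURs that were higher at 12 h were c127112_g1 (16 and 24 counts in the controls, 35 and 44 at 12 h) and c131018_g1 (1 count in both controls together, 47 at 12 h). These 3 were named after their values were seen, and the call on c127112_g1 was lost without control replicate 1, control replicate 2 or heat 12 h replicate 2 (adjusted p = 0.11, 0.0592 and 0.0818 by edgeR) and with DESeq2 (adjusted p = 0.0614).

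Of 3 genes for hormone conjugates, 2 had enough counts for a test, and both were lower at 2 h and at 12 h. JAR1 (c154840_g1), a GH3 family enzyme that in Arabidopsis joins jasmonate rather than auxin to an amino acid, had log2 fold changes of -1.47 at 2 h and -1.66 at 12 h. The latter was -2.35 without heat 12 h replicate 1 and -1.11 without heat 12 h replicate 2. ILL3 (c150084_g1), of a family whose members release auxin from amino acid conjugates, had -1.39 and -1.14. The calls on ILL3 were lost without control replicate 1 at either time, with adjusted p of 0.0581 and 0.0783 by edgeR, and at 12 h also without heat 12 h replicate 2 (adjusted p = 0.08).

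The 4 remaining list members moved at 2 h and stayed moved at 12 h. Beside ABP1, a dormancy/auxin associated protein (c144439_g1) was higher, with 395 and 407 counts in the controls, 1955 and 1229 at 2 h and 1728 and 2080 at 12 h (log2 fold change 2.38 at 12 h, adjusted p = 7.93e-07 by edgeR). The other two, a second dormancy/auxin associated protein (c140256_g1) and an auxin-responsive protein (c141936_g1), were lower at 12 h by -1.80 and -1.44 on the log2 scale and were named after their values were seen. The call on c141936_g1 was lost without control replicate 1 (adjusted p = 0.107 by edgeR).

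**Figure D4:**
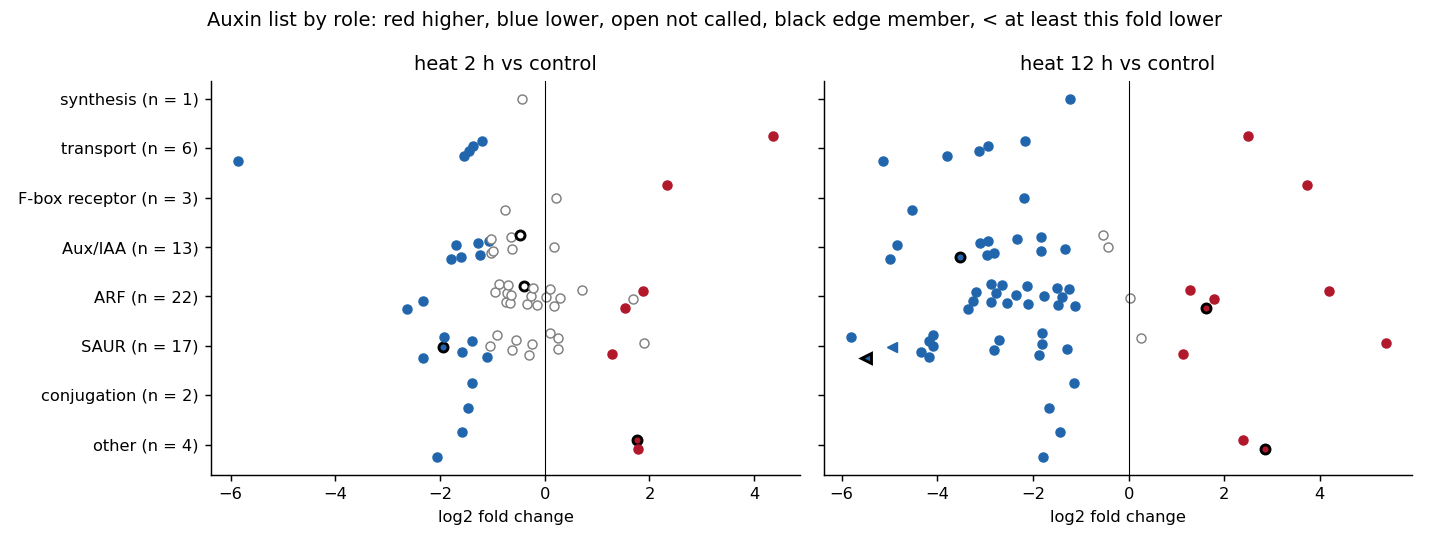
Log2 fold change against control (x axis) at 2 h and at 12 h for the 68 tested unigenes of the auxin list, in rows by role with n per row. Red points are higher, blue lower and open grey not called, black edges mark IAA26, ARF1, the SAUR and ABP1, and triangles stand at the lower bound of the fold for unigenes with 0 counts at 12 h. Most rows shift to the left between 2 h and 12 h, while ARF1 and ABP1 stand on the right at 12 h.

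EXPA10 was set beside the other wall genes of the study's table of changed unigenes, as far as that table was used here, which gives 6 unigenes with 5 tested. None was higher against the control at either time by edgeR, also at an unadjusted p and with DESeq2. EXPA10 at 12 h and c141032_g1 at both times could hardly be called higher, as they passed the filter through other libraries. At 2 h 3 were lower and at 12 h 3 were lower, but EXPA10 was in the second count alone. Over all unigenes tested, 8.98% were lower at 2 h and 23.3% at 12 h. The list holds only unigenes that the study called changed, so its counts are not independent evidence of a direction. XTH8, an enzyme that cuts and rejoins xyloglucan, was represented by c136479_g1, with 46 and 55 counts in the controls, 64 and 21 at 2 h and 12 and 10 at 12 h (log2 fold change -2.04 at 12 h, adjusted p = 0.00312 by edgeR). The 2 h replicates were far apart, and the step from 2 h to 12 h was no longer called without heat 2 h replicate 1, heat 12 h replicate 1 or heat 12 h replicate 2 (adjusted p = 0.274, 0.0548 and 0.122 by edgeR). A second XTH8 unigene, c141032_g1, had 31 counts in both controls together, 7 at 2 h and 3 at 12 h, and was called lower at both times. Its calls were lost at 2 h without control replicate 1 or 2 (adjusted p = 0.0719 and 0.248 by edgeR) and at 12 h without control replicate 2 or heat 12 h replicate 2 (adjusted p = 0.0824 and 0.0586 by edgeR).

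Of the remaining wall genes, 2 were lower at 2 h and not called at 12 h, unlike EXPA10. An inhibitor of invertase or pectin methylesterase (c113042_g1) had 38 and 30 counts in the controls, 13 and 6 at 2 h and 28 and 23 at 12 h. It was lower at 2 h (log2 fold change -2.04, adjusted p = 0.00443 by edgeR) and higher at 12 h than at 2 h (log2 difference 1.76, adjusted p = 0.00866 by edgeR). Without heat 12 h replicate 1 the latter adjusted p was 0.0551. FUT8 (c155541_g2), a fucosyltransferase, had a log2 fold change of -1.46 at 2 h (adjusted p = 0.0034 by edgeR) and of -0.71 at 12 h (adjusted p = 0.0578 by edgeR). The sixth, a pectin methylesterase (c127413_g1), had too few counts for a test.

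For each of the 5 unigenes the 3 most similar profiles were sought among 1051 unigenes with a mean of at least 10 CPM in some group. These were named in the study's tables, mostly of changed unigenes, which hold the auxin list. Most unigenes at such levels were not searched, as 9013 of those tested averaged at least 10 CPM over the 6 libraries. Likeness was the root mean square distance of log2(CPM + 0.5), relative to the control mean, over the 6 libraries, and a smaller distance is closer. IAA26 was closest to TPS9 (c151375_g1, trehalose phosphate synthase 9, distance 0.154), TIR1 (c154565_g2, 0.231) and a homeodomain-like protein (c147356_g1, 0.238). ARF1 was closest to a plastid developmental protein DAG (c146476_g1, 0.147), an unknown protein (c136252_g1, 0.184) and a kelch repeat protein (c150701_g2, 0.184). ABP1 was closest to the metal transporter NRAMP2 (c153025_g1, 0.129), an unknown protein (c146707_g1, 0.161) and a DCC thiol-disulphide oxidoreductase (c156131_g1, 0.175).

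For the SAUR and EXPA10, both with low counts, the distances were larger. The SAUR was closest to an unknown protein (c153070_g1, 0.299) and to 2 unigenes matched to the glutathione transferase GSTU17 (c141181_g1, 0.314, and c130722_g1, 0.316). EXPA10 was closest to a CHY zinc finger protein (c148983_g1, 0.285), a DUF1262 protein (c136478_g1, 0.288) and the proton pump AHA10 (c142775_g2, 0.289). IAA26 and TIR1 were the only pair among these matches in which both belong to the auxin list.

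Levels are also given for 2 short lists of cell markers, drawn from unigenes that the study called changed. Fewer cells and less RNA per cell cannot be told apart, so these levels do not measure the cell makeup of the leaves. The 9 leaf markers (chlorophyll binding proteins and photosystem I subunits) each had counts in at least 1 library and together summed to 12370 to 12570 CPM without heat, 7070 to 8908 CPM after 2 h and 4061 to 4229 CPM after 12 h. Of the 8 tested with edgeR, 4 were lower and none higher at 2 h, and 4 were lower and 2 higher at 12 h. The 9 markers of dividing cells (cyclin A, MCM2 and histones), such as those at the leaf base where cells also expand, summed to 42.95 to 43.95 CPM without heat, 42.57 to 49.64 CPM after 2 h and 26.42 to 35.95 CPM after 12 h. Of 8 tested, 5 were higher and none lower at 2 h, and 3 were higher and 2 lower at 12 h. The 5 higher at 2 h had fewer than 10 counts in at least 1 control library and passed the filter only with heat libraries. They could hardly be called lower. The counts of none were also 0 at an unadjusted p and with DESeq2, on the same filtered unigenes. The sum of the dividing-cell list was mostly CYCA1;1 (c154389_g1), at 33.83 and 33.98 CPM without heat and 10.97 and 15.07 CPM after 12 h. The other 8 together, taken apart after their values were seen, went the other way, from 10.12 and 8.975 CPM without heat through 30.39 and 25.44 CPM after 2 h to 15.46 and 20.88 CPM after 12 h. The median log2 fold change over the 8 tested markers of the whole list was 0.95 at 12 h. The leaf sum was thus lowest at 12 h, as were IAA26, the SAUR and EXPA10. Marker by marker, neither list had a common direction at 12 h. Between 12 h and 2 h the median log2 difference of the tested leaf markers was 0.41, although the sum of the list fell. The part of either list in these results was not tested.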

How the data were processed

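Leaf RNA of 3 groups with 2 biological replicates each was analysed. The authors used Trinity to assemble the reads and deposited expected counts per unigene, without scaling between libraries. The methods name RSEM for these counts, while the submitters' processing notes name Bowtie2 2.2.3, TopHat2 2.0.12 and HTSeq 0.6.1, and 0.157% of the values were not whole. Strand handling was not given in the sources used here.

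Counts were rounded. The filter filterByExpr, at a minimum count of 10, kept 28005 unigenes with 97.69 to 98.44% of the counts. TMM scaling and a joint fit of the 6 libraries used edgeR 4.0.16 (R 4.3.3), with 1 coefficient per group and 3 residual degrees of freedom (common dispersion 0.0271). Adjusted p-values are Benjamini-Hochberg values over all unigenes tested. Where a group had 0 counts, the lower bound of the fold was taken with 3 counts over that group. The counts of the other group were used as observed, so their error and the spread between replicates are not covered. In 1 library, 3 counts correspond to 0.352 to 0.499 CPM. Counting intervals are exact binomial and cover counting error only. The script was tested on simulated data.

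The genes and lists were chosen with earlier results of these data known. The auxin list is that of the study's hormone table. The wall list (Arabidopsis or rice annotations with expansin, xyloglucan or pectin) and the marker lists come from the part used here of its table of changed unigenes. Named beside the 5 unigenes are those with the same Arabidopsis locus or assembly component, the 2 with the smallest adjusted p at 12 h in each role of the auxin list, the wall list, and the 3 most similar profiles. Others are said to be named after their values were seen. A unigene that this rule selects is not reported here.

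Alternatives changed the scaling (RLE size factors, or library totals alone), the filter (1 count in all, or 10 counts in each library), the test (DESeq2 1.42.0, a block for the replicate number, or a fit without the third group) and the limits (unadjusted p, or any fold), and each library was left out in turn. Growth, physiology and quantitative PCR were not analysed here, and no unigene sequence was used.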

Additional observations from a re-analysis of the deposited data

Results flagged for a closer look

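The direct test of 12 h against 2 h, which does not use the control, called all 5 unigenes at a fold of at least 2. The SAUR and EXPA10 passed the filter on low counts only through the control and 2 h libraries, and could hardly be called higher at 12 h. The log2 difference was -3.06 for IAA26, 2.02 for ARF1, 1.08 for ABP1 and -2.24 for EXPA10, and the SAUR was at least 11.3-fold lower at 12 h than at 2 h. Groups of 2 libraries are too small for a test of single outlying libraries.

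Relatives of these genes also differed between the time points. The log2 difference was -3.97 for c149452_g1 and -2.02 for c152021_g1, both matched to IAA26, and -3.23 for c139599_g1, matched to the same locus as the SAUR, while c140286_g1 of that locus was at least 11.9-fold lower at 12 h. Of the other auxin genes named, ARF3 (c146582_g3) differed by -2.84, TIR1 (c154565_g2) by -3.78, AFB2 (c155641_g1) by -2.40, the SAUR c143594_g1 by -4.24 and PIN5 (c138127_g1) by -1.57. Of the wall genes, the inhibitor c113042_g1 differed by 1.76 and XTH8 (c136479_g1) by -1.57.

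Among the unigenes named after their values were seen, the log2 difference was 1.40 for c136442_g1 (matched to TIR1), -1.86 for the efflux carrier c150485_g1 and 2.51 for ARF17 (c133670_g1). It was 1.04 for c127112_g1, 3.49 for c131018_g1 and -1.03 for c141910_g1, all SAURs. The calls on these SAURs were not stable. That on c127112_g1 was lost in 8 of 13 alternatives, among them DESeq2 (adjusted p = 0.0897) and library totals alone (adjusted p = 0.0988 by edgeR). That on c141910_g1 was lost in 4 of 13, among them RLE size factors and DESeq2, where the log2 difference was -0.94 and under the fold limit. That on c131018_g1 was lost without heat 12 h replicate 2 (adjusted p = 0.153 by edgeR), which holds 35 of its 47 counts at 12 h. The call on ARF17 (c133670_g1) was lost without heat 12 h replicate 1 or 2 (adjusted p = 0.0631 and 0.0835 by edgeR), and that on c136442_g1 without heat 12 h replicate 1 (adjusted p = 0.0622 by edgeR).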

How the results depend on the processing

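Leaving out each library in turn kept the number of the 5 unigenes called at 2 at 2 h and 5 at 12 h and between the time points, and no log2 fold change of the 5 reversed under any alternative run. ABP1 between 12 h and 2 h fell under the fold limit with library totals alone (0.81) and with at least 10 counts in every library (0.95). That filter removes unigenes that reached low counts, the SAUR and EXPA10 among them, and left 1 of the 5 called at 2 h, 3 at 12 h and 2 between the time points. Under it the auxin list had 4 higher and 8 lower at 2 h, 5 and 22 at 12 h, and 1 and 15 between the time points, and the wall list had 1 lower in each comparison and 0 higher between the time points. With no minimum fold, 10 of the auxin list were higher at 12 h than at 2 h. With a library left out, the auxin list had 14 to 26 lower at 2 h and 3 to 6 higher between the time points, and the wall list 0 to 1 higher and 1 to 2 lower between the time points. No pairing by replicate number was seen (correlations of replicate deviations of -0.0523, 0.047 and -0.0376), though this cannot show that the samples were unpaired. With a replicate block 2, 5 and 5 of the 5 unigenes were called in the 3 comparisons. With library totals alone, the median over all unigenes tested moved to 0.20 (log2) at 2 h and -0.11 at 12 h. The depth limits the SAUR and EXPA10 at 12 h, with 0 counts in both libraries and with 4 and 13 counts.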
